A study of Mus musculus with 6 samples.

Results

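The kidney of a mouse whose renal vessels had been clamped for 45 min was compared with one clamped for 0 min, both collected 1 day after the clamp was released. The comparison rests on 2 of the 6 arrays of the series, chosen by their titles, with 1 array on each side. The third array used throughout is that of the 0 min kidney of day 3. Its difference from the 0 min kidney of day 1 serves as a yardstick of how far 2 kidneys without a clamp time lay apart, although it also holds the difference in day. The remaining arrays (60 min on day 1, 45 and 60 min on day 3) are given beside them.

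The mice were FVB/N males, aged 6 to 8 weeks and weighing 22 to 26 g. Under pentobarbital anaesthesia the pedicles, the stalks that carry the renal vessels, were exposed through the flank, and on one side a microclamp was set for 0, 45 or 60 min and then released. A 0 min animal therefore had the same anaesthesia and incision. The labels do not say what was done with the opposite kidney, nor whether an array held RNA of 1 animal or of a pool. The series is titled for TNF blockade after ischemia and reperfusion, the interruption and return of blood flow, and no array here is labelled with a blocker.

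The proximal tubule, which reclaims most of the filtered solutes, is the part of the nephron most sensitive to lost blood flow. Surviving tubule cells dedifferentiate, switch on injury proteins such as KIM-1, and re-enter the cell cycle to replace lost neighbours. Chemokines released by tubule and immune cells draw neutrophils and monocytes, and fibroblasts can lay down matrix around the tubules.

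With 1 array a side there is no replicate of either condition, so no test was made and sizes are described only. Intensities are given in the order 0, 45 and 60 min. Differences are of log2(intensity + 16), so a value of 1 is called 2-fold, and the added 16 makes the difference of dim genes smaller than their ratio of intensities. The trimmed mean was 500.003 on each of the 6 arrays and the median intensity lay between 81.4 and 95.3. A sign of RNA quality, the actin control's 3′ over 5′ log2 ratio, was 1.12 on the 0 min and 1.10 on the 45 min array of day 1, against 0.77 on the 0 min array of day 3. The Gapdh ratio was -0.23, -0.22 and -0.37 on the same 3 arrays.

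Markers of kidney were bright on both day 1 arrays. The phosphate transporter gene Slc34a1 of the proximal tubule had intensities of 18632 at 0 min and 17830.4 at 45 min, and Umod of the loop of Henle had 35476 and 31404. Adrenal cortex genes were dim, with Cyp11a1 at 31.1 and 24.7. The fat marker Adipoq, an adipokine gene, read 1581 and 1619. The elastase gene Cela1, taken here as a pancreas marker, read 3058 and 4968, and the brown fat gene Cidea 391 and 345. The other pancreas marker, Prss2, was dim, at 50.7 and 64.1. Kidney markers were thus present, and so were markers of fat and Cela1, whose part in the results was not tested.

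Of 12735 genes kept after a filter on dim probe sets, 453 (3.56%) were at least 2-fold higher at 45 min than at 0 min on day 1, and 135 (1.06%) at least 2-fold lower. The same rule applied to the yardstick gave 218 genes higher (1.71%) and 175 lower (1.37%). The median absolute difference was 0.21 for the clamped kidney and 0.20 for the yardstick, and the 99th percentiles were 1.74 and 1.52. Most genes therefore lay about as far from the 0 min kidney of day 1 in the clamped kidney as in another kidney with no clamp time. At the threshold, the nearest genes on either side differed by 1.0005 and 0.9998 above and by -1.01 and -0.999 below.

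Beyond the yardstick's own 99th percentile lay 190 genes, of which 154 were higher and 36 lower. The yardstick itself had 128 genes past that point. Many calls were of dim genes: with the genes kept cut into 4 equal bins by mean level, the dimmest held 219 of the 453 higher and 85 of the 135 lower, and the brightest 47 and 17. In 39 of the genes higher at 45 min the 0 min intensity was below 16, and in 10 of those lower the 45 min intensity was.

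The yardstick and the comparison share the 0 min array of day 1, so a gene that read low on that array alone stands high in both. Of the 453 higher genes, 143 were also at least 2-fold higher on the 0 min array of day 3, and of the 135 lower genes, 38 were also lower there. Against the 0 min array of day 3 alone, 325 genes were at least 2-fold higher (2.55%) and 100 lower (0.785%). A stricter rule asks for 2-fold from both 0 min arrays. It held for 134 genes above (1.05% of those kept) and 44 below (0.346%), or 101 and 54 after quantile normalization. These are the genes that the account below puts first.

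**Figure D1:**
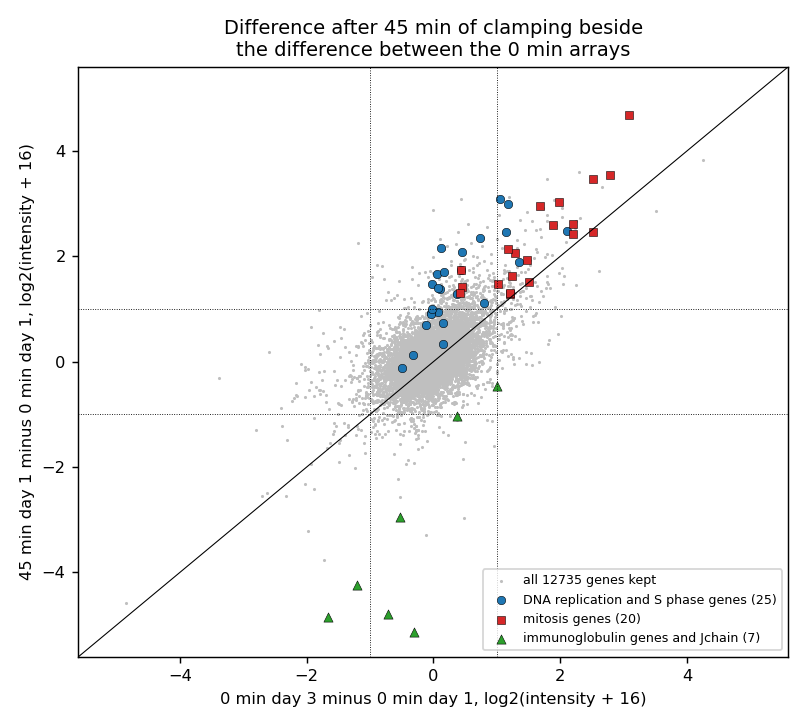
Each point is 1 of 12735 genes. The vertical axis gives the difference of the 45 min from the 0 min kidney of day 1 and the horizontal axis that of the 0 min kidney of day 3 from the 0 min kidney of day 1, both as log2(intensity + 16), with dotted lines at 2-fold and a solid line of equality. Both axes share 1 array. Of 25 S phase genes (blue) 16 lie above 1 on the vertical and 5 above 1 on the horizontal axis, of 20 mitosis genes (red) 20 and 17, and 5 of the immunoglobulin and joining chain points (green) lie below -2. Of all points 3.56% lie above 1 on the vertical and 1.71% on the horizontal axis.

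Ranked by their difference from the nearer 0 min array, the first 20 genes with a proper name held 3 of the S phase list, Uhrf1, Dscc1 and Mcm6. Dtl, Hells, Atad2, Esco2, Cdca7, E2f1, Lrr1 and Stil, on none of the lists, were among them too. The others were Ccl20, Slc7a12, Serpina6, Serpinb2, Arg1, Saa3, Fgb, Igfbp1 and Havcr1.

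Of 25 DNA replication and S phase genes kept, 16 were at least 2-fold higher than on the 0 min array of day 1 and 12 were above both 0 min arrays. The shares over all genes kept were 3.56% and 1.05%. The list median was 1.40, against 0.15 for the yardstick and 0.02 over all genes. Mcm6, a subunit of the helicase that opens DNA for replication, read 85.9, 799 and 1706 on day 1 and 215, 226 and 1173 on day 3. Both 0 min kidneys and the 45 min kidney of day 3 were low, and the 45 min kidney of day 1 stood between those and the kidneys clamped for 60 min. Uhrf1, which guides the copying of DNA methylation to new strands, read 59.7, 629 and 1267 on day 1 and 141, 159 and 1081 on day 3. It followed the same order. The differences from the 0 min kidney of day 1 were 3.00 for Mcm6 and 3.09 for Uhrf1, beside 1.18 and 1.05 for the yardstick.

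The other subunits of that helicase were uneven. Mcm3 was higher by 2.09, Mcm4 by 1.74, Mcm5 by 2.34 and Mcm7 by 0.95. For Mcm2 the brightest probe set gave -0.13 and its other probe set 1.07, so the 2 probe sets of Mcm2 disagree. Probe sets also disagreed for Cdc45, which joins the helicase at the origin, with 2.48 and -0.31. Where Mcm3, Mcm4, Mcm5, Mcm6 and Mcm7 had further probe sets, all of these were higher as well, at 0.66 or more.

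Licensing and its control were represented by several genes. Cdt1, which loads the helicase onto DNA, read 448, 1446 and 2418 on day 1 and 465, 449.8 and 1591 on day 3. Dtl, the ubiquitin ligase adaptor that marks Cdt1 for destruction once replication starts, read 33.6, 232 and 281 on day 1 and 37.6, 53.5 and 201 on day 3. Neither gene differed between the 0 min kidneys by more than 0.11. Among the G1 to S cyclins, Ccne2 was higher by 1.40 and Ccne1 by 1.28. E2f1, a transcription factor that switches on replication genes, read 40.6, 182 and 200.2 on day 1 and 29.1, 68.6 and 181 on day 3, with the 45 and 60 min kidneys of day 1 almost alike.

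Nucleotide supply and the polymerases were mixed. Rrm2, the regulated subunit of ribonucleotide reductase, was higher by 2.46 (yardstick 1.14) and its partner Rrm1 by 0.92 (-0.03). Pcna, the sliding clamp, went from 2858 to 4768 and lay at 3174 in the 0 min kidney of day 3. The primase and polymerase genes Prim1 and Pola1 were higher by 0.99 and 0.91, each with a yardstick of -0.03. Thymidylate synthase gene Tyms, at 0.13, was near 0.

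**Figure D2:**
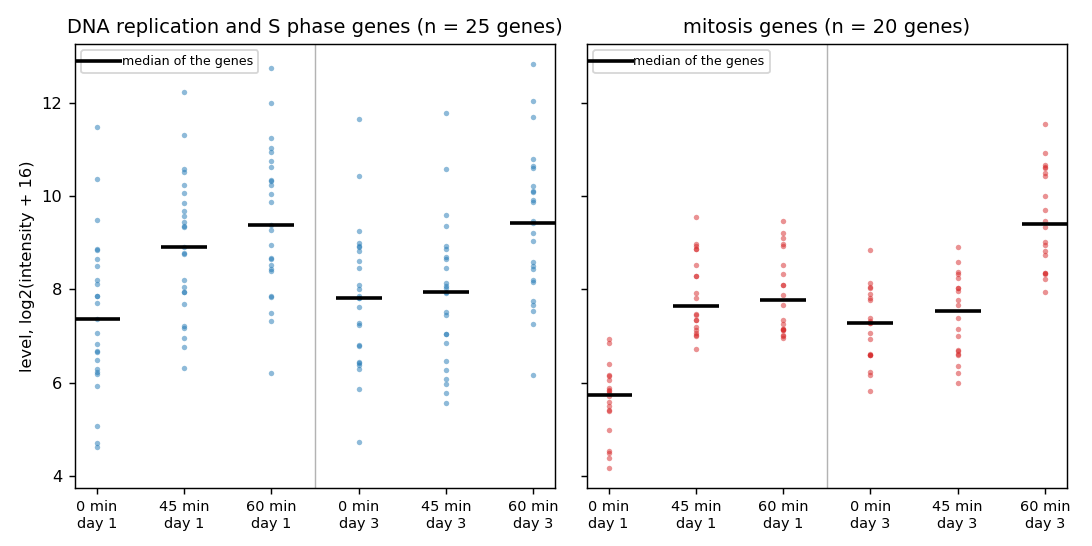
Level as log2(intensity + 16) of each of 25 DNA replication and S phase genes (left, blue) and 20 mitosis genes (right, red) on the 6 arrays, with the median over the genes as a bar. The S phase bars of both 0 min kidneys and of the 45 min kidney of day 3 are below that of the 45 min kidney of day 1. The lowest mitosis bar is that of the 0 min array of day 1.

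Mitosis genes were higher too, but most of that difference was shared by the other 0 min kidney. All 20 of the 20 mitosis genes kept were at least 2-fold higher at 45 min than at 0 min on day 1, with a median of 2.10. The share over all genes kept was 3.56%. Probe sets disagreed for Tpx2, with 1.63 in the one used and -0.09 and -0.34 in the others. For Kif11 they gave 1.41, 1.81 and 0.29. Where other mitosis genes had further probe sets, these gave 1.03 or more. In the yardstick 17 of the 20 were at least 2-fold higher, against 1.71% of all genes kept, with a list median of 1.496. Against the 0 min array of day 3 the median of the 45 min kidney was 0.73. Of the 20 genes 4 were above both 0 min arrays, against 1.05% of all genes kept.

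Those 4 were Cdk1, Top2a, Aurkb and Bub1. Cdk1, the kinase that drives entry into mitosis, read 2.22, 451 and 577 on day 1 and 139, 245 and 1373 on day 3. Its difference of 4.68 was the largest of the genes kept and rests on a 0 min value near background, while the yardstick was 3.09. Top2a, which untangles DNA, read 40.9, 450.4 and 485 and 208, 289 and 1546, for a difference of 3.03 and a yardstick of 1.98. By contrast Aurka, a spindle pole kinase, had 7.41, 113 and 138 on day 1 and 118, 81.7 and 410.4 on day 3, so the 45 min kidney of day 1 and the 0 min kidney of day 3 were close (-0.05). The proliferation marker Mki67 lay between, with 3.46 against the one 0 min array and 0.95 against the other.

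Promoters of replication genes are shown because these genes were higher together, and E2F factors are known to act on such promoters. E2f1, on none of the lists, was higher too, and a part of E2F factors in these values was not tested. RefSeq promoter sequence (build GRCm38.p6, 250 bases before the first annotated start) was matched to 10269 of the genes kept. The E2F site was searched on both strands as any of TTTCCCGC, TTTCGCGC, TTTGCCGC and TTTGGCGC, and the CCAAT box as CCAAT on both strands. Both motifs and the promoters shown were chosen after the values were seen. Sites of AP-1, NF-kB, SRF, TEAD and STAT factors, the heat shock element and the clock E-box were searched too. Capitals mark E2F sites, and where these run on beyond 8 letters, matches on opposite strands overlap.
Mcm6 (chr1:128359706-128359955, minus strand): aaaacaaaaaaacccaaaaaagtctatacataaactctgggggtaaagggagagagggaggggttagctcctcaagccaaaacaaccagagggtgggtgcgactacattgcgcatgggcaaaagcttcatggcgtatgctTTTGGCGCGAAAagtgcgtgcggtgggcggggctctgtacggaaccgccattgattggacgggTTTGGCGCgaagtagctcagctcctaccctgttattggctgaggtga
Mcm5 (chr8:75109259-75109508, plus strand): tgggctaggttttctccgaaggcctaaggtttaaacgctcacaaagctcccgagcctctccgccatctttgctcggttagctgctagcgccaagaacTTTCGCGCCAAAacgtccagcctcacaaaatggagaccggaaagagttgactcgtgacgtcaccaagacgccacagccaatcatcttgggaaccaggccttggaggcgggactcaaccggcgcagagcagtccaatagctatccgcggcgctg
Dtl (chr1:191575545-191575794, minus strand): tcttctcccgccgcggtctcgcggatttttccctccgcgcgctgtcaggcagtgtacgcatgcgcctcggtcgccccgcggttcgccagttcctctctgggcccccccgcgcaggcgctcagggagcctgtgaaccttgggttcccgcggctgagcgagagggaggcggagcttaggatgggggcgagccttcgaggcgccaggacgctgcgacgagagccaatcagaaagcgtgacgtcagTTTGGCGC

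In Mcm6 the sites lie 110 to 99 and 47 to 40 bases before the start, in Mcm5 153 to 142 bases before it, and in Dtl in the last 8 bases. An E2F site was found in 6 of 20 S phase promoters (30%), namely those of Mcm5, Mcm6, Mcm7, Cdc6, Rfc3 and Pola1, whose differences ran from 0.91 to 3.00. It was found in 8 of 98 promoters of genes above both 0 min arrays (8.16%), in 3.42% of the promoters of genes kept and in 1.91% of all 27025 in the table. Of the other motifs, the TEAD site stood in 20.4% of the promoters above both 0 min arrays, against 10.9% of those of genes kept. The shares were 6.12% and 4.39% for AP-1, 9.18% and 5.93% for STAT, and 1.02% and 0.321% for the heat shock element. They were 0% and 1.11% for SRF and 4.08% and 8.41% for the clock E-box. The CCAAT box stood in 70% of S phase and 87.5% of mitosis promoters, against 34.5% of all and 45.9% of those above both 0 min arrays, and in 62.5% of clock promoters. The E2F site stood in 1 of 16 mitosis promoters (6.25%). A match is a description of the letters and does not show that a factor was bound.

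Injury markers of the tubule were higher as well. Of 21 kept, 11 were at least 2-fold higher than on the 0 min array of day 1 and 7 were above both 0 min arrays, with a median of 1.03 (yardstick 0.15). The shares over all genes kept were 3.56% and 1.05%. Havcr1, which encodes KIM-1, was higher by 2.78, beside a yardstick of 1.03, since it was itself brighter in the 0 min kidney of day 3 (1242) than in that of day 1 (599). Lcn2, the gene of the lipocalin NGAL, which binds iron carriers, read 1273, 3911 and 10746 on day 1 and 640.1, 1423 and 6621 on day 3. Here the 0 min kidney of day 1 was the brighter of the pair, so the difference of 1.61 grows to 2.58 against the other. The keratin gene Krt20 read 66.7, 231 and 988 on day 1 and 49.8, 173 and 514 on day 3, and both 45 min kidneys stood above both 0 min kidneys.

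Clu, a secreted chaperone, was higher by 1.03, Anxa3, a membrane-binding annexin, by 1.45, and the calcium-binding protein gene S100a6 by 1.18. Timp1, an inhibitor of matrix proteases, had 159, 785 and 1368 on day 1 and 281, 573 and 1339 on day 3, a difference of 2.19. Each of these 4 was also 2-fold above the 0 min kidney of day 3. The adhesion receptor gene Cd44 was not: its 1.63 shrank to 0.40. Some injury genes whose difference was past 1 after 60 min were not past it here. Sprr2f, a small proline-rich envelope protein gene, read 50.2, 107 and 961 at 0, 45 and 60 min of day 1 (0.89 at 45 min). Tnfrsf12a, the receptor of the cytokine TWEAK, was not higher at 45 min (-0.14). At 60 min, set against the same 0 min array, 18 of the 21 were at least 2-fold higher, with a median of 1.85, while 4.36% of all genes were higher and 1.7% lower.

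**Figure D3:**
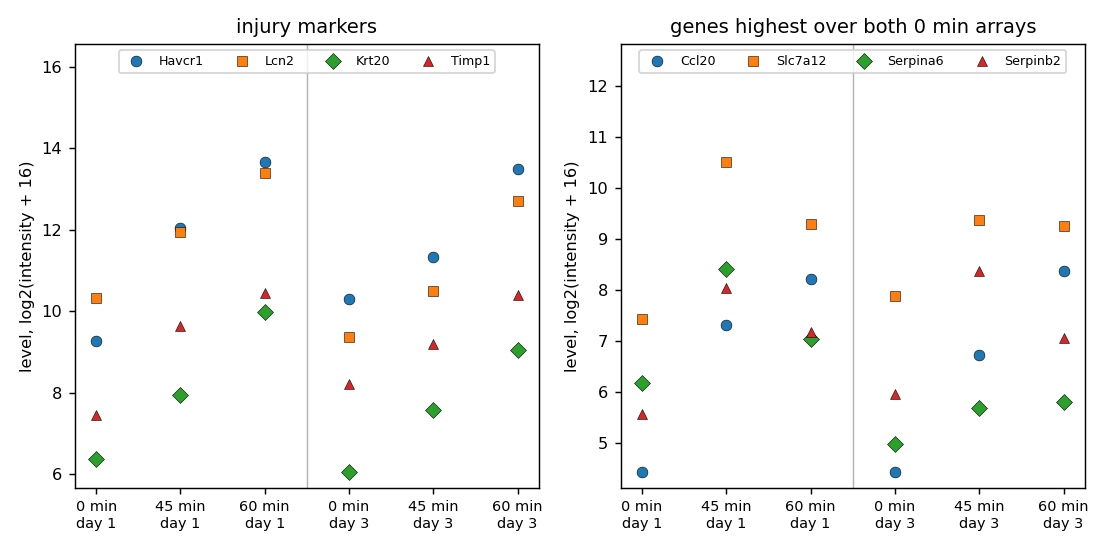
Level as log2(intensity + 16) on the 6 arrays of 4 tubular injury markers (left) and of 4 of the genes furthest above both 0 min arrays (right). Each point is 1 array. Havcr1, Lcn2, Krt20 and Timp1 stand higher at 60 than at 45 min on both days, while Slc7a12 and Serpina6 are highest at 45 min on day 1.

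Several genes were brighter after 45 than after 60 min of clamping on day 1. Slc7a12, an amino acid transporter gene, read 157, 1449 and 615 on day 1 and 219, 646 and 597 on day 3, and was higher by 3.08 with a yardstick of 0.44. Serpina6, which encodes corticosteroid-binding globulin, read 56.3, 326 and 116 and 15.8, 35.6 and 40.0, and its 45 min kidney of day 1 stood apart from all 5 others. Serpinb2, an inhibitor of plasminogen activators, had 31.7, 247 and 129 on day 1 and 46.1, 315 and 118 on day 3, high in both 45 min kidneys. Igfbp1, which binds insulin-like growth factors, was also highest in both 45 min kidneys, with 363, 1318 and 570.4 and 201, 1493 and 132. Arg1, the arginine-cleaving enzyme of liver and of some macrophages, was 1.98 higher and lay level in the 0 min kidneys (-0.01).

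Chemokine genes held several of the higher inflammatory genes. Of 20 kept, 9 were at least 2-fold higher and 1 at least 2-fold lower than on the 0 min array of day 1, and 5 and 1 held against both 0 min arrays. The shares over all genes kept were 3.56% and 1.06%, and 1.05% and 0.346% against both. The list median was 0.86, with 0.18 for the yardstick. Ccl20, which attracts cells with the receptor CCR6, read 5.73, 145 and 283 on day 1 and 5.57, 89.8 and 317 on day 3. It was near background in both 0 min kidneys and above it in all 4 clamped ones, so the size of its difference, 2.89, depends on the added 16.

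Among neutrophil attractants, Cxcl5 read 20.5, 106 and 98.5 on day 1 and Cxcl2 46.0, 128 and 304. Their differences were 1.74 and 1.21, beside 0.56 and -0.63 for the yardstick. Cxcl1, of the same family, was an exception on day 1, with 248, 356 and 1759 there and 183, 1723 and 2255 on day 3. Its 45 min kidney was higher by 0.50 on day 1 and by 3.13 on day 3. Among monocyte attractants Ccl2 was higher by 1.42, Ccl7 by 1.14 and Ccl12 by 1.09, and of these only Ccl7 was 2-fold above both 0 min arrays. Ccl9 was higher by 1.15 and differed by 0.03 between the 0 min kidneys.

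The NF-kB site, searched on both strands by its usual consensus, stood in 5 of 14 chemokine promoters (35.7%), those of Cxcl1, Cxcl2, Cxcl10, Ccl9 and Ccl20, against 7.01% of all promoters of that length and 8.71% of those of genes kept. It stood in 9.18% of promoters of genes above both 0 min arrays, in 15% of the S phase and in 25% of the heat shock promoters. The promoter of Ccl20 is shown because that gene lay furthest above both 0 min kidneys. Its site, in capitals, reads on the strand opposite to the gene and lies 80 to 71 bases before the start.
Ccl20 (chr1:83116516-83116765, plus strand): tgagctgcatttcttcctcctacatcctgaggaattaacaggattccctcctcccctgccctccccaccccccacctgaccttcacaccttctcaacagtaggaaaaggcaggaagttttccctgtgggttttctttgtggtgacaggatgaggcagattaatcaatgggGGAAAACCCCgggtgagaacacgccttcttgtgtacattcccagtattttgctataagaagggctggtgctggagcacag

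Cytokine genes were closer to the 0 min kidney. Tnf itself was dim and below the filter, with 9.49, 4.43 and 9.41 on day 1. The receptor genes Tnfrsf1a and Tnfrsf1b differed by 0.23 and 0.06. Of 12 genes of TNF and its receptors, 0 were 2-fold higher or lower, a count near the 3.56% and 1.06% over all genes kept. Il1f6, which encodes an IL-1 family cytokine of epithelia, was the one member of 14 injury cytokines and growth factors past 2-fold. A count of 1 in 14 is also near those shares. Il1f6 read 62.2, 224 and 389 on day 1 and 57.4, 162 and 444 on day 3, so all 4 clamped kidneys stood above both 0 min kidneys.

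Immediate early genes, which answer a stimulus within minutes to hours, lay close to the 0 min kidney at this time. Of 21 kept, 0 were 2-fold higher, a count near the 3.56% over all genes kept. The median was 0.18 (yardstick -0.04). Fos differed by 0.95, Egr1 by 0.86 and Atf3 by 0.66. The same list had a median of 0.97 at 60 min of day 1, which shares the 0 min array, and of 0.78 at 45 min of day 3. Of 13 genes of NF-kB subunits and feedback inhibitors, Traf1 alone was past 2-fold (1.07), and its other probe set gave -1.36.

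Acute phase genes split by gene. Saa3, a serum amyloid made outside the liver, read 314, 1444 and 857 on day 1 and 355, 682 and 560.2 on day 3, highest in the 45 min kidney of day 1. The fibrinogen gene Fgb had 294, 1088 and 2656 and 151, 289 and 279.7. Fga and Fgg, which encode the other chains of fibrinogen, differed by 0.14 and 0.40, and both were brighter at 0 min on day 1 than on day 3 (-1.80 and -1.57). Socs3, the feedback inhibitor of IL-6 type signals, was higher by 1.08 and alike in both 0 min kidneys (-0.02). Bcl3, a partner of NF-kB, differed by -0.78.

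Macrophage markers were higher than on the 0 min array of day 1, and about level with that of day 3. Of 20 kept, 8 were at least 2-fold higher against the first and 4 against both, beside 3.56% and 1.05% of all genes kept. The list medians were 0.73 against the first and 0.08 against that of day 3. The summed intensity of the list was 11158, 23372 and 27674 on day 1 and 19814, 29826 and 74742 on day 3. Lyz1, a lysozyme gene of myeloid cells, read 1283, 4412 and 3664 and 5286, 8671 and 20213, lowest in the 0 min kidney of day 1. In bulk tissue, more cells of a type and more RNA per cell cannot be told apart, and the same holds for fewer and less.

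The 4 above both 0 min arrays were Arg1, Cd68, Msr1 and Lgals3. Cd68, a lysosomal protein of macrophages, had 121, 452 and 560.1 on day 1 and 195, 182 and 1105 on day 3. Msr1, a scavenger receptor, was higher by 1.69 with a yardstick of -0.01. Lgals3, the galectin that injured tubules also make, was higher by 1.45. The defining genes Adgre1 and Csf1r differed by 0.32 and 0.20, both below their yardsticks of 0.55 and 0.70.

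Neutrophil markers had a median of 0.53 (yardstick 0.20), with 7 of 8 above the 0 min kidney of day 1. The calprotectin genes S100a8 and S100a9 differed by 0.20 and 0.02, and the granule genes Mmp9, Ngp and Mmp8 by 0.81, 0.60 and -0.34. Clec4d, a lectin receptor of neutrophils and monocytes, was the 1 of 8 neutrophil markers past 2-fold (1.99), beside 3.56% of all genes kept. Over 20 genes stimulated by interferon the median was 0.28 (yardstick 0.14), with Gbp3 at 1.01. Complement genes had a median of 0.60 against one 0 min array and 0.01 against the other.

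Matrix genes were higher than in both 0 min kidneys, and further from that of day 1. Of 25 kept, 15 were at least 2-fold higher than on the 0 min array of day 1 and 5 above both, beside 3.56% and 1.05% of all genes kept. The list medians were 1.17 for the comparison, 0.33 for the yardstick and 0.75 against the 0 min kidney of day 3. The collagen gene Col1a1 read 131, 1209 and 1326 on day 1 and 535, 684 and 1395 on day 3, and Col3a1 read 1675, 11604 and 10405 and 5818, 11019 and 18832. For both, the 0 min kidney of day 1 was the lowest of the 6, and their yardsticks were 1.91 and 1.79.

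Periostin gene Postn was higher by 2.85 and still by 1.37 against the other 0 min kidney. Tnc, a matrix glycoprotein of healing tissue, read 186, 471 and 958 on day 1 and 204, 392 and 962 on day 3, with the 0 min kidneys alike (0.12), and was higher by 1.27. The basement membrane collagen gene Col4a1 was higher by 1.37. Acta2, the smooth muscle actin of myofibroblasts, was higher by 0.76 with a yardstick of 0.51. Of the 8 markers of resident fibroblasts and pericytes 2 were 2-fold higher and 1 lower, beside 3.56% and 1.06% of all genes kept. Of these markers 0 held against both 0 min arrays. Their median was 0.79, beside 0.07 for the yardstick and 0.52 against the 0 min kidney of day 3. Their summed intensity was 10895, 13517 and 12666 on day 1 and 10371, 13329 and 15485 on day 3, and their part in the matrix result was not tested.

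Immunoglobulin genes, made by plasma cells, were the lowest against both 0 min kidneys. Igha, the constant region of immunoglobulin A, read 13435, 369 and 2395 on day 1 and 10885, 12185 and 1587 on day 3. It was thus lowest in the 45 min kidney of day 1, low in both 60 min kidneys, and high in the 2 kidneys clamped for 0 min and in the 45 min kidney of day 3. Its difference was -5.13, the lowest of the genes kept, with a yardstick of -0.30, and its 3 probe sets gave between -5.21 and -5.03. Jchain, which joins IgA into polymers, read 4182, 137 and 592 and 2534, 2989 and 379, in the same order.

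Of 6 immunoglobulin genes kept, 5 were at least 2-fold below both 0 min kidneys, with a median of -3.59 (yardstick -0.41). This set was chosen after the values were seen, and 0.346% of all genes kept were below both. Igk and Igkv9-120 read 11.6 and 7.60 at 45 min on day 1, so they passed the filter through other arrays. Segments under the filter were dim, and most were lower, from -2.56 for Igkv15-103 to 0.83 for Igkv19-93. The light chain segment Igkv8-30 differed by -4.85 and Igkv9-120 by -4.24, whose other probe set gave -1.18. Variable segments are nearly alike in sequence, so which of them a probe set reads is uncertain. The median of these 6 was -2.12 at 60 min on day 1, set against the same 0 min array, and 0.04 at 45 min on day 3.

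Genes tied to IgA in mucosa and glands were low as well. Ccl28, the chemokine that draws IgA plasma cells, read 8240.3, 590.2 and 2105 on day 1 and 2473, 3857 and 928 on day 3, a difference of -3.77 and of -2.04 against the other 0 min kidney. Pigr, which carries polymeric IgA through epithelium, differed by -2.01, with a yardstick of -1.24. Ccl28 and Pigr are genes of epithelium and not of plasma cells. Of the plasma cell genes kept, Mzb1 differed by -0.79, Derl3 by -0.75, Xbp1 by -0.37, Prdm1 by 0.33 and Sdc1, which tubules express too, by 0.01. Below the filter, Tnfrsf17 went from 41.6 to 2.85 and Pou2af1 from 57.3 to 19.3. Ighm, the IgM constant region, differed by -1.03, and its 7 probe sets gave between -1.14 and 0.25. The B cell genes Cd79a, at 1.98 and 1.66, and Cd79b, at 21.4 and 37.5, were near background on both arrays.

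**Figure D4:**
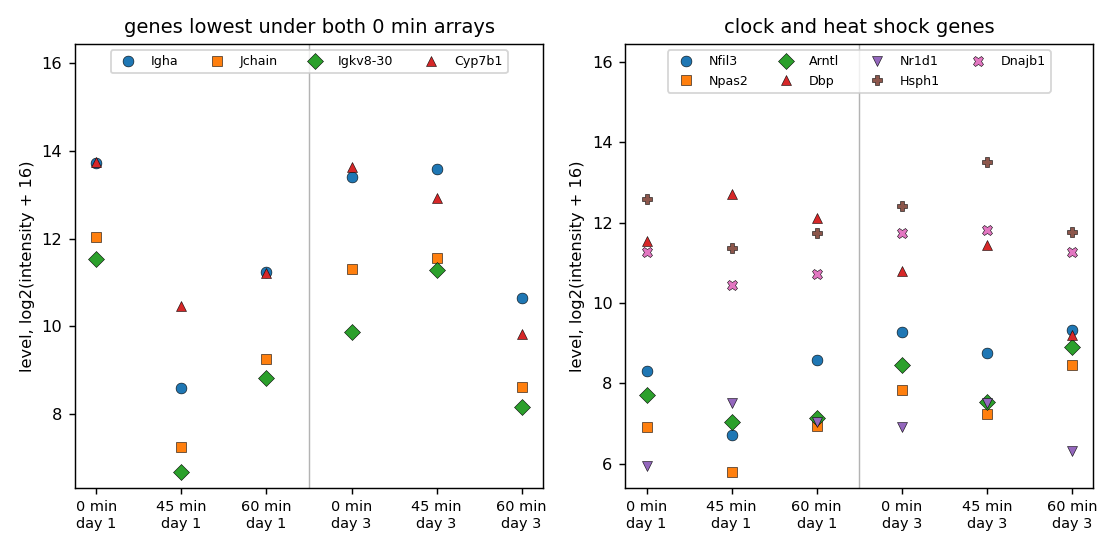
Level as log2(intensity + 16) on the 6 arrays of 4 of the genes furthest below both 0 min arrays (left) and of clock and heat shock genes (right). Each point is 1 array. Igha, Jchain and Igkv8-30 are lowest in the 45 min kidney of day 1 and stand with the 0 min kidneys at 45 min on day 3, while Nfil3 and Npas2 are lowest at 45 min on day 1.

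Cyp7b1 was the next gene below both 0 min kidneys that is not an immunoglobulin or joining chain gene. Cyp7b1, which hydroxylates oxysterols and steroids, read 13732, 1391 and 2373 on day 1 and 12608, 7714 and 887 on day 3. Its difference was -3.29, with a yardstick of -0.12. Cyp4a12a, a fatty acid hydroxylase that is higher in male mouse kidney, went from 7070.1 to 1855 and stood at 5738 in the 0 min kidney of day 3. The lipoprotein genes Apob and Apoh differed by -1.87 and -3.22, and Apoh was also low in the 0 min kidney of day 3 (-1.97). The other probe set of Apoh gave -0.18.

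Of 34 cytochrome P450 and conjugating enzymes, 4 were at least 2-fold lower and 1 higher, but Cyp7b1 alone of the 4 was below both 0 min kidneys. The shares over all genes kept were 1.06% lower, 3.56% higher and 0.346% below both. Cyp2d9, another male-biased steroid hydroxylase, read 10865, 2164 and 2314 on day 1 and 2666, 2761 and 433 on day 3, so the 0 min kidney of day 1 stood above all 5 others. Cyp2d12 had a difference of -1.91 and a yardstick of -1.49. The tyrosine catabolism gene Hpd had -2.55 and -2.32. Akr1c18, an enzyme that inactivates progesterone, was the highest of the list at 3.82, but the yardstick was 4.26, and the 0 min kidney of day 1 (262) was the lowest of the 6. Azgp1, a zinc-binding glycoprotein gene, differed by -4.59 while the yardstick was -4.84, and read 802, 18.0 and 773 on day 1 and 12.5, 11.6 and 15.0 on day 3.

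Regulators of transcription were among the genes below both 0 min kidneys. Nfil3, a repressor that times clock output, read 301, 89.4 and 365 on day 1 and 603, 419 and 627 on day 3. Hey1, a target of Notch, read 98.6, 13.8 and 47.7 and 68.8, 53.3 and 58.1. The 45 min kidney of day 1 was the lowest of the 6 for both. Prdm6 and Prdm11, of the PR domain family, were lower too (-2.56 and -1.85), from intensities of 94.0 and 109 at 0 min, and the other probe set of Prdm11 gave 0.62. H2-Aa, which encodes an MHC class II chain, had 2024, 793 and 768 on day 1 and 2252, 3555 and 3372 on day 3, low at 45 and 60 min of day 1 only. The 3 kept probe sets of H2-Aa gave between -1.33 and -0.37 at 45 min on day 1.

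Circadian clock genes lay on both sides. Of 18 kept, 2 were at least 2-fold higher and 2 lower, beside 3.56% and 1.06% of all genes kept, with a list median of 0.09. Of the activators, Arntl differed by -0.67, Clock by -0.52 and Npas2 by -1.13. Of the repressors and output genes, Nr1d1 was higher by 1.56, Dbp by 1.17 and Per3 by 0.93, while the repressor Nfil3 was lower, as given above, and Per2 was near the 0 min kidney (-0.26). Dbp, which encodes an output activator, read 2955, 6662 and 4452 on day 1 and 1757, 2762 and 572 on day 3. Against the 0 min kidney of day 3 the values were -1.42 for Arntl, -2.05 for Npas2, 1.91 for Dbp and 1.33 for Per3, and the list median was 0.57. The labels used here give no hour of collection, so hour and clamp cannot be told apart.

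Heat shock proteins were lower on average. Of 16 kept, 12 read below the 0 min kidney of day 1, and the median was -0.43 (yardstick 0.01; -0.47 against the 0 min kidney of day 3). Hsph1, a co-chaperone of the Hsp70 family, read 6091, 2626 and 3434 on day 1 and 5424, 11642 and 3478 on day 3. It was the one member below both 0 min kidneys by 2-fold, beside 0.346% of all genes kept. Hspa8, the constitutive Hsp70, differed by -0.58 and Hsp90aa1 by -0.50. The inducible Hspa1a read 1214, 797 and 857 on day 1 and 1424, 7932 and 1067 on day 3, where the 45 min kidney was the highest of the 6.

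Few nephron segment genes were past 2-fold after this clamp, but most of those of the thick ascending limb and distal tubule were lower than at 0 min. Of 40 proximal tubule transporters, 1 was 2-fold higher (Slc7a12) and 1 lower (Slc22a26, an organic anion transporter, -1.13), with a median of -0.04 (yardstick 0.20). Slc22a8, a basolateral organic anion carrier, went from 5978 to 3007. Of 13 thick ascending limb genes 12 were lower than at 0 min, 0 by 2-fold, and the median was -0.42, beside -0.94 after 60 min on the same day and from the same 0 min array. Egf, the growth factor made there, shows the contrast, with 19971, 17862 and 6409 on day 1.

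Further along, 14 of 16 distal convoluted tubule genes were lower, with a median of -0.26 (yardstick -0.08). Calb1, a calcium-binding protein of the distal tubule, read 13041, 9252 and 3788 on day 1. Slc26a4, the chloride exchanger of intercalated cells, read 1720.2, 860.2 and 757. Kl, which encodes Klotho, was higher by 1.13 against the 0 min kidney of day 1 but lower than that of day 3 (-0.54). Of 29 genes of the respiratory chain and ATP synthase 26 were lower, 0 by 2-fold, with a median of -0.11. Genes of hypoxia and glycolysis had a median of -0.20 over 26 genes, and Adm, adrenomedullin, was the 1 past 2-fold (-1.17). The 29 genes of the integrated stress response and the ER chaperones had a median of -0.32, with 0 past 2-fold. Over all genes kept 3.56% were 2-fold higher and 1.06% lower, so counts of 0 or 1 in such lists are near those shares.

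**Figure D5:**
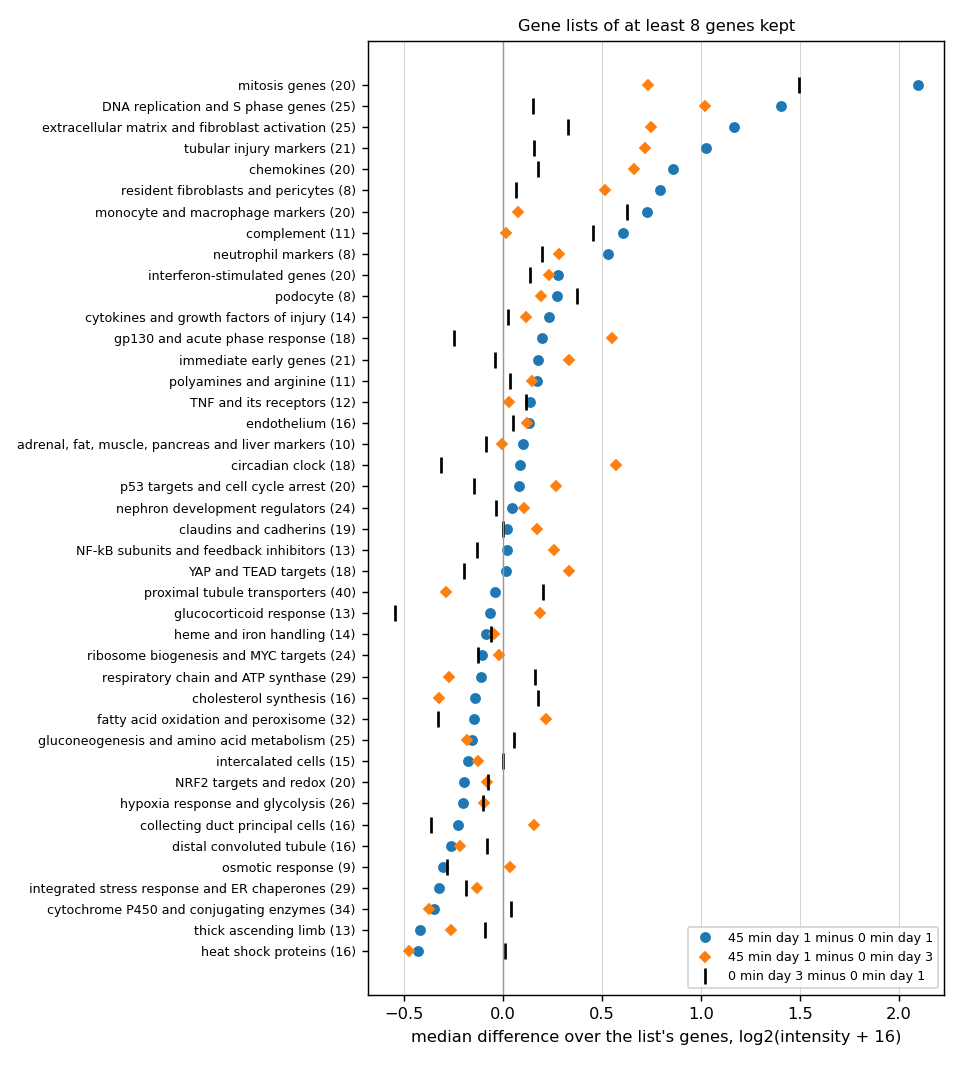
Median difference in log2(intensity + 16) over the genes kept of each list with at least 8, with the number of genes in brackets. Blue circles set the 45 min kidney of day 1 against the 0 min kidney of day 1, orange diamonds against that of day 3, and black bars set one 0 min kidney against the other. The S phase list stands above 1 from both 0 min kidneys, and the mitosis list drops from 2.10 to 0.73.

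The 45 min kidney of day 3 was set against its own 0 min kidney, a comparison that shares no array with that of day 1. It had 185 genes at least 2-fold higher (1.45%) and 100 lower (0.785%). Of the genes higher on day 1, 36 were also higher on day 3, which is 7.95% of the day 1 list and 19.5% of the day 3 list. They included Havcr1, Lcn2, Krt20, Clu, Socs3, Ccl20, Cxcl2, Ccl9, Il1f6, Serpinb2, Igfbp1, Slc7a12, Ankrd1 and Dscc1. Of the genes lower on day 1, 6 were lower on day 3, 4.44% and 6% of the lists.

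Cell cycle and glucocorticoid genes differed in median between the days, as did the immunoglobulin genes given above. The mitosis list had a median of 2.10 on day 1 and 0.21 on day 3. The S phase list went from a median of 1.40 on day 1 to 0.07 on day 3, where 1 of 25 genes was 2-fold higher. The list of genes that answer glucocorticoids, 13 kept, had a median of -0.07 on day 1 and 1.27 on day 3. Each of these medians was taken against the 0 min kidney of its own day, and the 0 min kidneys differed. The yardstick median was 1.496 for mitosis, 0.15 for S phase and -0.55 for glucocorticoid genes. Against the 0 min kidney of day 3, the 45 min kidney of day 1 had medians of 0.73, 1.02 and 0.19. How much the 0 min kidneys add to the contrast was not tested. Igfbp1 was higher by 1.81 on day 1 and by 2.80 on day 3. Ankrd1, a target of YAP in stretched and injured cells, was similar on both days (1.57 and 1.73). Whether the differences of day 1 and day 3 differ was not tested, since each rests on 2 arrays.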

How the data were processed

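Total RNA of 6 kidney samples was extracted with Trizol and labelled with a 3′ kit that copies RNA from its 3′ end, per the labels' protocols. The deposited values are linear intensities, 1 per probe set and array, made by the authors with Affymetrix Expression Console, per the submitters' processing notes. Version and summary algorithm: not given in the sources used here. The mean of each array, trimmed by 2% at each end, was 500.003, so the arrays share a common scale. The number of arrays limits the precision.

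The 45101 probe sets comprised 64 controls, 34945 naming a single gene (by GEO's platform annotation, which can be old), 932 naming several and 9160 naming none. A RefSeq identifier was found for 34741 and changed 0 symbols. For each of 18193 genes the probe set used was that of highest mean log2(intensity + 16), and 12735 genes at or above the 40th percentile of probe sets (log2 6.01) were kept. Differences of single arrays were computed with Python 3.11.15, pandas 2.3.3 and numpy 2.4.6 and tested on simulated data. No p-value was computed.

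The comparison, the members and 44 gene lists (887 symbols, 818 on the array, 760 kept) were chosen with earlier results of these data known. Genes were named by rule, leaving out predicted and clone names: the 20 furthest above and below both 0 min arrays, the 5 highest and lowest against the 0 min array of day 1, up to 4 members of each list with the largest absolute difference, and Havcr1, Lcn2, Krt20, Slc34a1, Umod, Tnf, Tnfrsf1a, Tnfrsf1b and the defining cell type markers where spoken of. Other members of a list, complex or family were named after their values were seen, as were Pigr, the plasma cell genes and the genes shared with day 3. Of 204 genes named by rule, 89 had several kept probe sets, and in 79 these had 1 sign. Alternatives were quantile normalization, median centring, other pseudocounts, filters, folds and controls, and averaging over probe sets of a gene.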

Additional observations from a re-analysis of the deposited data

Results flagged for a closer look

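In 4 of the genes chosen by rule the 45 min kidney stood 2-fold from its 0 min kidney in opposite directions on the 2 days, and the difference between the days was not tested. Igkv8-30 differed by -4.85 on day 1 and 1.41 on day 3. Adam4, a metalloprotease gene, differed by -1.62 and 1.14. Saa1, a serum amyloid gene, differed by -1.30 and 1.03. For the co-chaperone gene Hsph1 the values were -1.21 and 1.10. The 0 min kidneys themselves lay apart for Saa1 (yardstick -2.80) and Igkv8-30 (-1.66), and less so for Adam4 and Hsph1 (-0.17 each). Saa1 read 293 and 28.3 in the 0 min kidneys of day 1 and day 3, and 109 and 74.2 in the 45 min kidneys. Its opposite signs thus go with a larger difference between the 0 min than between the 45 min kidneys. In all, 7 genes were higher on day 1 and lower on day 3, and 7 the reverse.

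Probe sets outside the gene analysis also held differences past 2-fold. Of 4081 kept probe sets with several gene symbols or none, 110 were at least 2-fold higher and 61 lower at 45 min on day 1, and 24 and 22 held against both 0 min arrays. Of the 12735 genes kept, 453 were higher and 135 lower, and 134 and 44 held against both. No yardstick is given for these probe sets, so their counts are a description only. The probe set furthest above both among those with no symbol was higher by 2.81 and went from 31.1 to 315. Among those with several symbols it was higher by 3.02 and went from 179 to 1563. In the other direction, a probe set with several symbols differed by -5.16, from 9857 to 261, and another by -4.46, from 13167 to 583. Against the 0 min array of day 3 they differed by -4.51 and -4.09. The lowest difference among the genes kept was -5.13.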

How the results depend on the processing

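Quantile normalization and median centring of the arrays moved none of the counts, list medians and named genes by more than the spread between the 0 min arrays over all genes (SD 0.42) or, for counts, by 1.5 times. The counts of genes higher (453), lower (135), above both (134) and below both 0 min arrays (44) depended on the other settings. With a pseudocount of 64 they were 256, 71, 70 and 20, and with 1 the genes below both were 69. With no filter they were 737, 695, 221 and 196, and with a filter at the 60th percentile 263, 55, 74 and 18. At 1.5-fold they were 1251, 556, 549 and 195, and at 3-fold 136, 31, 32 and 13. With the mean of both 0 min arrays as control, 291 genes were higher and 73 lower. With a filter chosen after seeing the data, an intensity of at least 100 on 1 of the arrays compared, 29 genes were below both. Of the list medians, that of mitosis genes was 1.35 with a pseudocount of 64, 2.52 with the 60th percentile filter, 0.73 against the 0 min array of day 3 and 1.38 against the mean of both. Against the 0 min array of day 3 the macrophage median was 0.0789, the matrix median 0.75 and the clock median 0.57. The sign turned for Akr1c18 (-0.43), Azgp1 (0.26), Saa1 (1.499), Lyz1 (-0.26) and Kl (-0.54) with the 0 min array of day 3 as control, for Saa1 (0.10) with the mean of both, and for Traf1 (-0.15) with the mean of its probe sets. The cause was not tested. No paired analysis was possible because each group holds 1 array. Leaving out a replicate was not possible either. Having 1 array a side leaves the spread between replicates unknown. In the dimmest of 4 equal bins of genes the differences had an SD of 0.63, against 0.36 in the brightest.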

Other observations

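Genes with opposite 2-fold differences on the 2 days, beyond those named above, were picked after their values were seen. Slfn9, a schlafen family gene, differed by 2.54 on day 1 and -2.02 on day 3, with intensities of 11.3, 142 and 93.0 and 112, 15.6 and 161. Batf3, a transcription factor gene of dendritic cells, went from 139.9 to 24.8 on day 1 and from 24.7 to 147 on day 3. Cirbp, which encodes a cold-inducible RNA-binding protein, was higher by 1.23 on day 1 and differed by -1.01 on day 3. Ttpa, the vitamin E transfer protein gene, differed by -1.45 and 1.07. These values rest on 2 arrays a day. On days 1 and 3 the kidneys without a clamp time read 11.3 and 112 for Slfn9, and 139.9 and 24.7 for Batf3. The opposite signs of Slfn9 and Batf3 thus go with kidneys without a clamp time that themselves lay apart. How much that difference adds to the opposite signs was not tested. For Cirbp and Ttpa the difference between the kidneys without a clamp time is not given here.

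Markers of the glomerulus and vessels were near the 0 min kidney. Podocyte genes had a median of 0.27 over 8 genes (yardstick 0.37), with Wt1 at 1.09 and Podxl at 0.33. Endothelial genes had a median of 0.13 over 16 genes, with the adhesion molecule gene Selp at 1.11 and a yardstick of 1.10, and the VEGF receptor gene Flt1 at -0.76 with -0.92. Heme and redox genes included Alas1, the first enzyme of heme synthesis, which differed by -1.06 with a yardstick of -0.93, and Osgin1, an oxidative stress gene, which went from 1201 to 588 with 1276 in the 0 min kidney of day 3. Among genes of p53 and cell cycle arrest 0 of 20 were past 2-fold, with a median of 0.08. Over all genes kept 3.56% were higher and 1.06% lower, so this count is near those shares.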
